A study of Homo sapiens with 10 samples.

Results

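Binding of the retinoic acid receptor RARα was compared between SK-N-SH cells given retinoic acid (RA) and untreated SK-N-SH cells. SK-N-SH is an established human neuroblastoma cell line. All libraries came from cells moved to medium with charcoal-stripped serum for 24 hours, and the cells then received 1 µM RA or the vehicle (UT). The comparison rests on 4 of the 10 samples of the series, 2 chromatin immunoprecipitation libraries per treatment made with the RARα (C-20) antibody, each deposited as its own list of peaks. The other samples are 4 libraries made with an antibody against the coactivator MAML3, used here as a second readout at the RARα sites, and 2 input samples, which were not used here. Nothing in the labels ties the replicates to separate cultures, so differences between replicates could be technical. The labels give no duration of RA treatment.

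Peaks of the 4 RARα lists that overlapped by at least 1 bp were merged into sites. Gained sites are those in both RA lists and neither untreated list, lost sites the reverse, and common sites those in all 4 lists. Sites in a short, densely called stretch of chromosome X and in the outer 100 kb of each chromosome's listed range were set aside. All peak positions are on the hg19 build, count from 1 and carry a score that the authors deposited. Gene names are less firm than positions. No hg19 annotation was used, so each named gene was placed by an approximate hg19 span taken from general knowledge, rounded to 1 kb and checked for its chromosome and length against RefSeq GRCh38. A name therefore marks the locus around a site, not an exon, an intron or a measured distance, and "near" means within 100 kb of the gene. A site "at the start" of a gene lies within 3 kb of the start given by that span, so it need not cover the promoter.

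RARα is a ligand-activated transcription factor that binds DNA as a heterodimer with a retinoid X receptor. The pair occupies retinoic acid response elements, direct repeats of a short half-site, and it can sit there without ligand together with corepressors that are exchanged for coactivators when RA binds. Among the classic RA-responsive genes are RARB, which encodes another RA receptor, and the CYP26 genes, which encode the enzymes that clear RA. In neuroblastoma cells RA is known for slowing growth and inducing neuronal differentiation, and a retinoid is used in treatment.

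Response elements of the kind a reader would look for at these loci are shown first. The start of RARB carried a RARα peak in all 4 lists, and the CYP26A1 locus carried a gained site. That gained site lay at the far end of CYP26A1, away from the promoter stretch shown. Whether RARα bound either repeat was not tested. The sequences are RefSeq promoter stretches on GRCh38, 5′ to 3′ on the plus strand, at chr3:25428143-25428262 for RARB and chr10:93073773-93073892 for CYP26A1. Capitals mark a direct repeat with a 5-base spacer (DR5) in which each half-site is AGGTCA, the variant GGGTCA, the variant AGTTCA or the variant GGTTCA, searched on both strands.
RARB: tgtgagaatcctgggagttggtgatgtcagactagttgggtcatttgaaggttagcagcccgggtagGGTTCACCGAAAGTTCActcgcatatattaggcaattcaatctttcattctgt
CYP26A1: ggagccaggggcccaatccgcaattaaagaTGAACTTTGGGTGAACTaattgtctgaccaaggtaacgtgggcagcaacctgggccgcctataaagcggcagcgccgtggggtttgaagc

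The RARB repeat lies on the plus strand and ends 36 bases before the RefSeq start. The CYP26A1 repeat reads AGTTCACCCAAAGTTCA on the minus strand and lies 73 bases before the start. Of the 35116 RefSeq promoters, each running from 250 bases before to 50 bases after a start, 31 (0.0883%) held a DR5. Repeats spaced by 1 base (DR1) occurred in 46 (0.131%) and repeats spaced by 2 bases (DR2) in 14 (0.0399%). Of the 21 retinoid pathway genes with a promoter in the table, RARB and CYP26A1 held a DR5 and none held a DR1 or DR2. These matches describe promoter letters. The hg19 sequence under the peaks themselves was not analysed here.

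In untreated cells, 1321 RARα peaks were listed for replicate 1 and 251 for replicate 2 (mean 786 ± 757, SD, n = 2). After RA there were 1103 and 1064 (mean 1083.5 ± 27.6, SD, n = 2). The first untreated list was thus the longest and the second the shortest, and the difference between treatments lay within the spread of the untreated pair. With 2 lists a group, the smallest two-sided p of an exact permutation test is 0.33, and no count here carries a test. The lowest score was about 70 in each list (70.03, 70.04, 70 and 70.13). Without read depths, which were not at hand, the absence of a peak from a list does not show absence of binding. The name of the second untreated list carries a tag for merged data that the labels do not explain, and the names of untreated 1 and RA 2 share a lane tag.

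Merging gave 2120 sites, of which 39 were set aside, 16 in the chromosome X stretch and 23 at chromosome ends. Of the 39, 22 were common, 1 was gained and 0 were lost. The 2081 sites kept were held by untreated 1 (1281), untreated 2 (213), RA 1 (1050) and RA 2 (1012), and 1179 of them lay in 1 list only. The RA pair shared 533 sites, which was 50.8% of those in RA 1 and 52.7% of those in RA 2. Untreated 1 shared about as many with each RA list, 583 with RA 1 (45.5% and 55.5% of the lists) and 584 with RA 2 (45.6% and 57.7%), the list with the same lane tag. The untreated pair shared 164, which was 12.8% of untreated 1 and 77% of untreated 2.

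Of the 2081 sites, 114 were gained (5.48%), 10 were lost (0.481%) and 121 were common (5.81%). A further 289 sites (13.9%) were held by untreated 1 and both RA lists and missed only by the short second untreated list. Since a lost site must lie in that list of 251 peaks, the number lost has a low ceiling. Without untreated replicate 2, 123 sites were gained, 524 were lost and 410 were common, which turned the order of gained and lost. The rule is then uneven, since lost asks for 1 untreated list and gained still for both RA lists. Without untreated replicate 1, 402 were gained and 39 lost. Leaving out RA replicate 1 gave 423 gained and RA replicate 2 gave 458. With each list shortened to its 251 highest-scoring peaks, 44 sites were gained and 16 lost, and only 14 of the 114 stayed gained. This cut leaves untreated 2 whole, down to its lowest score, and shortens only the other lists. The order of gained and lost at equal length therefore cannot settle the part of the short list.

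**Figure D1:**
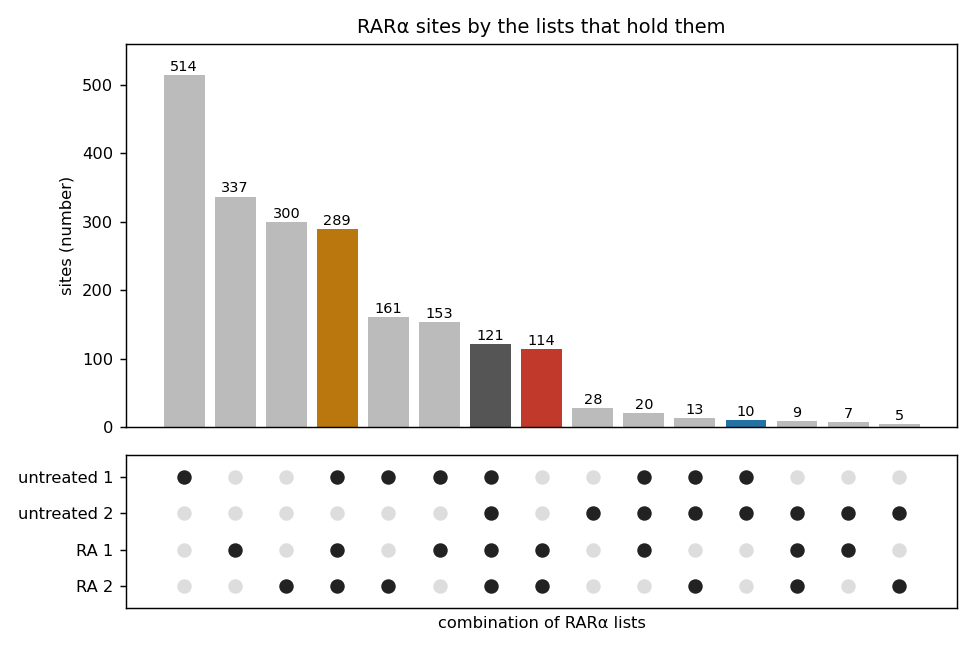
Number of RARα sites (vertical axis) for each combination of the 4 RARα lists, with filled dots below marking the lists that hold the sites. Gained sites (114, red), lost sites (10, blue), common sites (121, dark grey) and sites missed only by untreated 2 (289, orange) stand beside 514 sites found only in untreated 1.

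Gained sites lay lower in the RA lists than sites the untreated cells also held. The score percentile, where 100 is the top of a list, had a median over the gained sites of 57.0 in RA 1 and 51.2 in RA 2. The medians were 68.5 and 70.7 over the sites missed only by untreated 2, and 83.8 and 79.9 over the common sites. When the 533 sites of both RA lists were ordered by their mean percentile over the RA lists and cut into 4 bins of 133 or 134 sites, the gained share went from 35.1% in the lowest bin (47 of 134, 95% Wilson interval 27.5 to 43.5%) through 25.6% and 13.5% to 11.3% in the highest (15 of 133, 6.95 to 17.8%). Untreated 1 held 60.4%, 72.2%, 86.5% and 88.7% of the sites in the 4 bins, low to high, and untreated 2 held 11.2%, 19.5%, 24.1% and 42.9%. Intervals here and below include only counting error, and sites are not replicates of a treatment. The part of list depth in the gained calls was not tested.

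**Figure D2:**
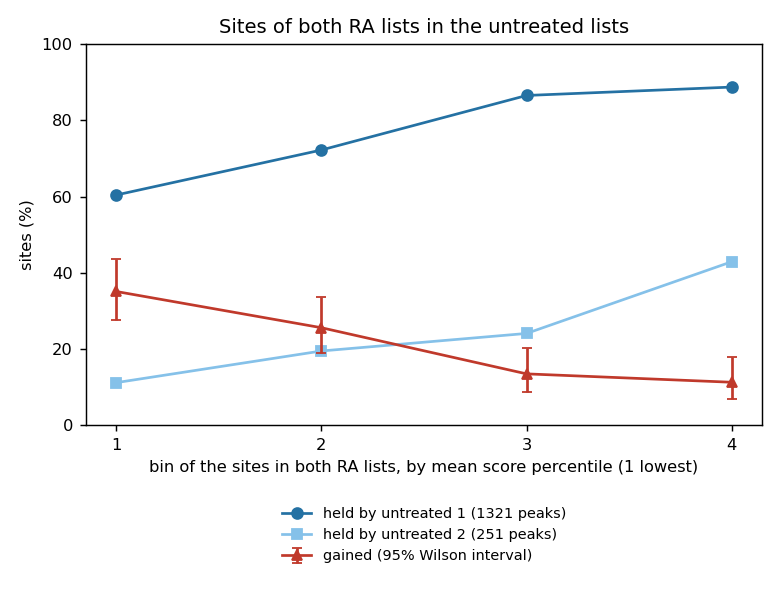
Share (%) of the 533 sites in both RA lists that untreated 1, untreated 2 or neither (gained, with 95% Wilson intervals) held, in 4 bins of 133 or 134 sites by mean score percentile in the RA lists. The gained share goes from 35.1% in the lowest bin to 11.3% in the highest, while both untreated lists hold more of the higher bins.

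**Figure D3:**
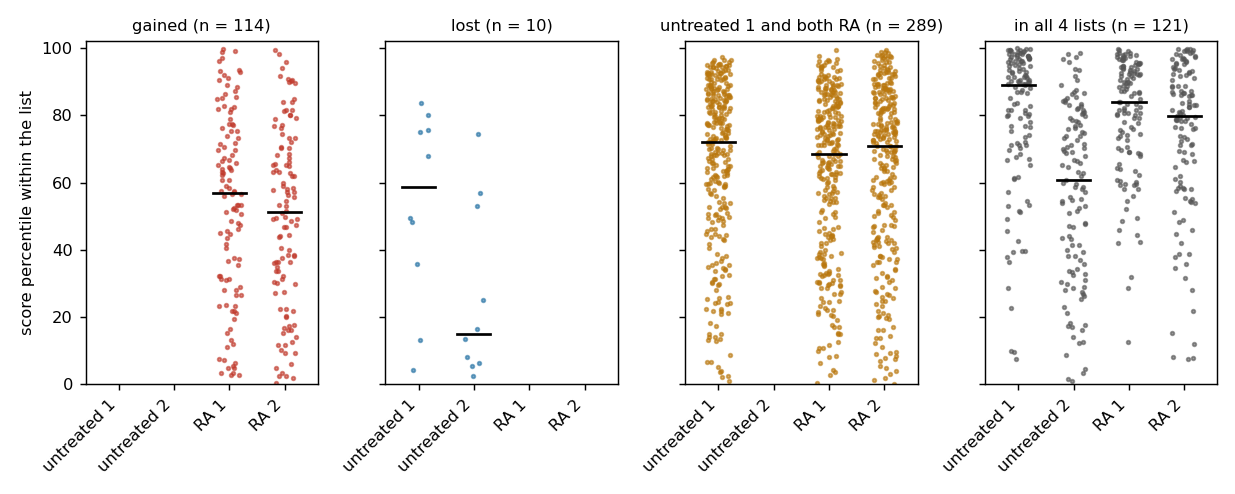
Score percentile within each RARα list (100 is the highest peak) for gained, lost and common sites and for sites missed only by untreated 2. Each point is a site and each bar a median: gained sites have medians of 57.0 and 51.2 in the RA lists, and common sites 83.8 and 79.9.

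The gained sites described next were picked by their mean score percentile, so they stand high in the RA lists by choice. The top one, at chr1:12533895-12534544, lay in VPS13D and near DHRS3, which encodes a reductase that turns retinaldehyde back into retinol. Its scores were 1137.02 in RA 1 and 901.38 in RA 2, at percentile 99.6 of both lists, with no peak in either untreated list. The next was at chr2:72431471-72432034, in EXOC6B and near CYP26B1, which encodes an RA-clearing enzyme. It scored 913.49 and 652.33, at percentiles 99.0 and 98.3. Both of these sites lay within the top 2% of each RA list.

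EXOC6B, which encodes a subunit of the vesicle-tethering exocyst complex, held 2 more of the 10 highest ranked gained sites. The one at chr2:72775085-72775684 scored 936.02 and 364.75, and the one at chr2:72499067-72499584 scored 666.08 and 231.91. A site in BCAS3, at chr17:59142685-59143171, scored 298.23 and 331.51. A site in CSRNP3, at chr2:166489071-166489484, scored 251.35 and 334.05. Given no gene were the sites chr1:61219095-61219544 (287.71 and 479.04), chr13:104659105-104659606 (269.62 and 324.85) and chrX:30242654-30243115 (399.35 and 231.91).

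Genes of the retinoid pathway held a larger share of gained sites than the set of all sites. Of 27 pathway genes, 14 had a RARα site within 100 kb and 7 had a gained one, among them CYP26A1, CYP26B1, CYP26C1, DHRS3, CRABP2 and NCOA3. They shared 6 gained sites, since CYP26A1 and CYP26C1 are neighbours. These 6 were 25% of the 24 sites at pathway genes, against 5.48% of all 2081 sites. At the 60 genes of the other 4 lists (HOX and TALE homeobox genes, adrenergic regulators of neuroblastoma, neuronal and axon guidance genes, and the Notch pathway), 1 of 61 sites was gained (1.64%). The lists were chosen with earlier results of these data known, so the shares are a description.

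Among the enzymes that clear RA, CYP26A1 and CYP26B1 had RARα sites only in RA lists. The gained site at the far end of CYP26A1, at chr10:94837734-94838083, scored 176.4 in RA 1 and 125.38 in RA 2. RA 1 alone held a site within 3 kb of the start of CYP26A1, chr10:94831534-94831748, with a score of 118.55. Whether that site covers the repeat shown above was not analysed. RA 2 alone held a site at chr10:94837608-94837674, with a score of 87.92. In VPS13D and near DHRS3, a second site lay beside the top gained one, at chr1:12538095-12538694. It was held by untreated 1 with a score of 71.35, close to the lowest of that list (percentile 2.08), and by the RA lists with 708.13 and 495.02 (percentiles 97.7 and 96.0). The same site was therefore near the bottom of the only untreated list that held it and near the top of both RA lists. VPS13D also held the site chr1:12493445-12494044, which only untreated 2 missed. It scored 93.83 in untreated 1 (percentile 31.2), 983.81 in RA 1 and 771.47 in RA 2.

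Among the genes of retinoid transport, CRABP2 had both a gained and a common site. It encodes an intracellular carrier that delivers RA to the receptors, and its upstream region held a gained site at chr1:156679495-156679844 with scores of 201.57 and 114.73. A common site lay next to it, at chr1:156680845-156681394, with scores of 221.47 and 107.72 in the untreated lists and 555.24 and 400.66 in the RA lists. STRA6, which encodes a cell-surface importer of retinol, had 2 sites nearby that only untreated 2 missed. At chr15:74583549-74583970 the scores were 270.65 in untreated 1, 179.03 in RA 1 and 205.72 in RA 2. At chr15:74585399-74585738 they were 138.34, 292.64 and 150.19 in the same lists.

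The receptor genes themselves had no gained site. The start of RARB, at the RARβ2 transcript, held the common site chr3:25469516-25470111, with scores of 590.24 and 206.5 in the untreated lists and 456.88 and 492.63 in the RA lists. It stood at percentiles 98.2, 81.5, 95.5 and 95.9 of the lists, so RARα was called there with and without RA, near the top of untreated 1 and both RA lists and lower in untreated 2. RARA, the gene of the receptor itself, had a site at its start, chr17:38463274-38463855, in both untreated lists (430.93 and 151.85) and in RA 1 (236.34), with none in RA 2. Elsewhere in RARA, RA 2 alone held chr17:38497803-38498030 (129.32). Untreated 1 and RA 2 held chr17:38507220-38507434 (111.22 and 100.79). Of the cofactor genes, NCOA3, which encodes a coactivator, held a gained site at chr20:46205352-46205751 (155.36 and 173.45). TGM2, another gene known to respond to RA, had 2 sites nearby, both in RA 1 only.

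**Figure D4:**
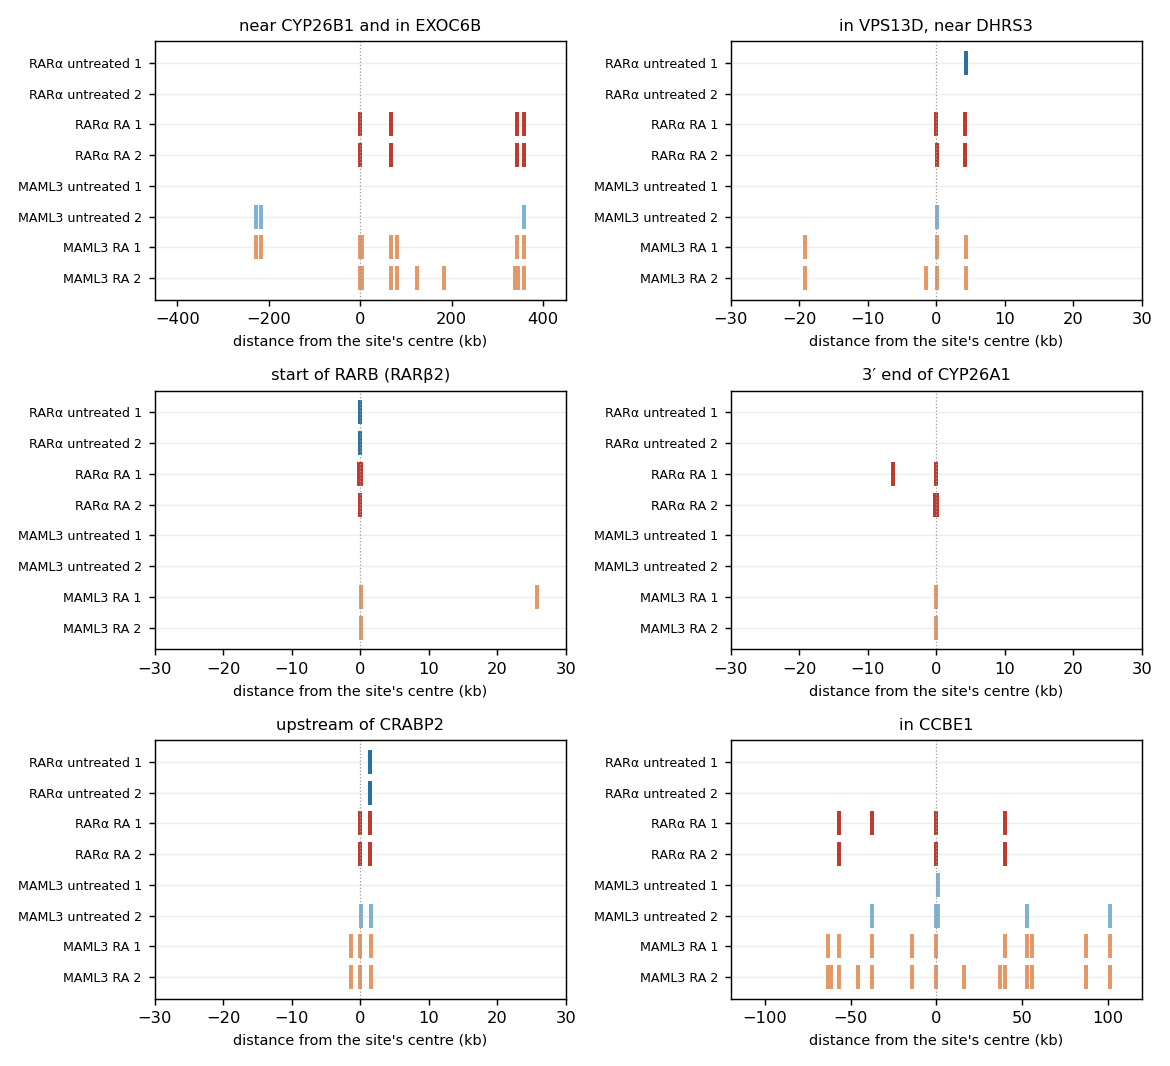
Peaks of the 4 RARα lists and the 4 MAML3 lists (ticks) at 6 loci, by distance in kb from the centre of the named site; tick width is not peak width. RARα ticks appear in both RA lists and neither untreated list at the centre of each panel except the start of RARB, where all 4 RARα lists have one and MAML3 appears only in the RA lists.

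RARα sites near the other gene lists were mostly of other classes. Of the 61 sites, 29 lay in 1 list only, as did 1179 of all 2081 sites. A further 21 (34.4%) were missed only by untreated 2, against 13.9% of all 2081 sites. MEIS2, a TALE homeobox gene, had the only gained site among those 60 genes, at chr15:37099453-37099852, with scores of 193.03 and 328.53. A site that only untreated 2 missed lay beside it, at chr15:37100599-37100998 (108.13, 215.6 and 321.22). The HOX genes had no gained, lost or common site, and HOXC4 and HOXC5 shared 1 site found only in RA 1. Of the 14 adrenergic regulators, 9 had a site and 6 had one that only untreated 2 missed, among them PHOX2A, GATA2, TBX2, ALK and RET. RET, which encodes a receptor tyrosine kinase of sympathetic neurons, had 3 such sites, the highest at chr10:43551558-43552049 with scores of 482.52, 571.06 and 716.12. Of the 14 neuronal and axon genes, 7 had a site, none gained, and PLXNA2, which encodes a semaphorin receptor, held a common one. Of the 13 Notch pathway genes, 6 had a site, none gained or common.

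Some gained sites lay close together, as did some common sites. Within 500 kb of one another, 20 of the 114 (17.5%) formed 8 runs, and 29 of the 121 common sites (24%) had another common site within that distance. The longest held 4 sites in EXOC6B, from 72431471 to 72790034 on chromosome 2, where the RARα lists had 0, 0, 4 and 4 peaks (untreated 1, untreated 2, RA 1, RA 2). EXOC6B was not free of untreated peaks. Beyond the run, the site chr2:72921935-72922368 scored 134.93 in untreated 1, 358.72 in RA 1 and 168.67 in RA 2. CCBE1, which encodes a secreted factor needed for lymphatic vessel growth, held a run of 3 from 57127011 to 57223960 on chromosome 18, with 0, 0, 4 and 3 RARα peaks. A run of 3 with no gene named ran from 23122482 to 23189456 on chromosome 21, with 0, 0, 3 and 3. Of all 114 gained sites, 6 had an untreated RARα peak within 1 kb, 23 within 10 kb and 43 within 100 kb.

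None of the 10 lost sites lay near a gene of the 5 lists. The highest ranked, at chr9:98979651-98979983, scored 185.48 in untreated 1 and 155.76 in untreated 2. One in CNTNAP2, which encodes a neuronal adhesion protein, at chr7:147501064-147501446, scored 205.73 and 77.98, and one at the start of G3BP1, at chr5:151151099-151151492, scored 225.38 and 70.81. RNLS (158.75 and 75.02) and ADARB2 (72.51 and 82.06) held one each. The lost sites had a median percentile of 58.7 in untreated 1 (4.28 to 83.8) and of 15.0 in untreated 2 (2.39 to 74.3). Given no gene were chr16:70462083-70462476 (182.68 and 73.8), chr1:42079455-42079690 (77.72 and 105.05), chr15:46535266-46535570 (117.94 and 72.55) and chr1:4672107-4672346 (99.6 and 77.26).

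Of the 10 highest ranked common sites, 5 lay in or near genes of small nuclear and nucleolar RNAs, the RNA parts of the splicing and ribosomal RNA processing machinery. SNORD3A held the first, at chr17:19091235-19091871, with scores of 669.65, 639.87, 973.3 and 757.55 (untreated 1, untreated 2, RA 1, RA 2). RNU2-2 held the second, at chr11:62608933-62609435, with 712.45, 495.78, 869.27 and 617.02. SNORD3C, SNORD3B-1 and RNU1-1 had 3 more of the top 10. All 11 small RNA genes looked up had a common site in or near them and none had a gained one, but this list was written after the sites were seen. Such genes have near-identical copies, so which copy the reads came from is uncertain.

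Other common sites of the top 10 included the start of SP2, the gene of a zinc finger transcription factor, at chr17:45973185-45973721 (1136.44, 398.94, 850.15 and 746.84). The sites chr14:35015893-35016526, chr2:67788268-67788934, chr7:18737847-18738450 and chr1:17222445-17222994 were given no gene, which says only that no gene that passed the position check was placed there. Lower in rank, common sites lay in BCAS3, SMG6, ITGB5, FOXO3, ESRRG and GMDS. BCAS3 and SMG6 each held both a common and a gained site. In SMG6, which encodes a nuclease of nonsense-mediated RNA decay, the common site chr17:2082872-2083322 scored 340.2, 148.96, 416.34 and 283.07, and the gained one, chr17:2077985-2078434, scored 251.91 and 265.96.

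MAML3 peaks did not enter the choice of sites and gave a separate readout. MAML3 is a mastermind-like coactivator, best known for its role with Notch. Of the 114 gained RARα sites, 37.7% overlapped a MAML3 peak of untreated 1, 67.5% one of untreated 2, 83.3% one of RA 1 and 79.8% one of RA 2. Over the 121 common sites the shares were 62.0%, 74.4%, 78.5% and 77.7%, and over all 2081 sites 50.3%, 74.2%, 78.7% and 77.5%. The MAML3 lists differ in length, from 2222 to 7532 peaks. With each cut to its 2222 highest-scoring peaks, the gained sites stood at 37.7% (Wilson interval 29.4 to 46.9%) and 43.0% (34.3 to 52.2%) in the untreated lists and at 69.3% (60.3 to 77.0%) and 71.9% (63.1 to 79.4%) in the RA lists. This cut leaves the MAML3 list of untreated 1 whole, down to its lowest score, and shortens only the other lists. Both RA values lay above both untreated values, but the intervals include only counting error and do not measure a spread between libraries. The 289 sites missed only by untreated 2 showed the same order, at 71.6% and 77.5% (72.4 to 81.9%) untreated and at 86.5% (82.1 to 90.0%) and 87.2% with RA, so the order was not particular to gained sites. The common sites stood at 62.0% and 51.2% untreated and at 56.2% and 59.5% with RA, with intervals that overlapped. Both untreated MAML3 list names show 1 library number and 1 index, and the labels do not state whether they are separate libraries.

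**Figure D5:**
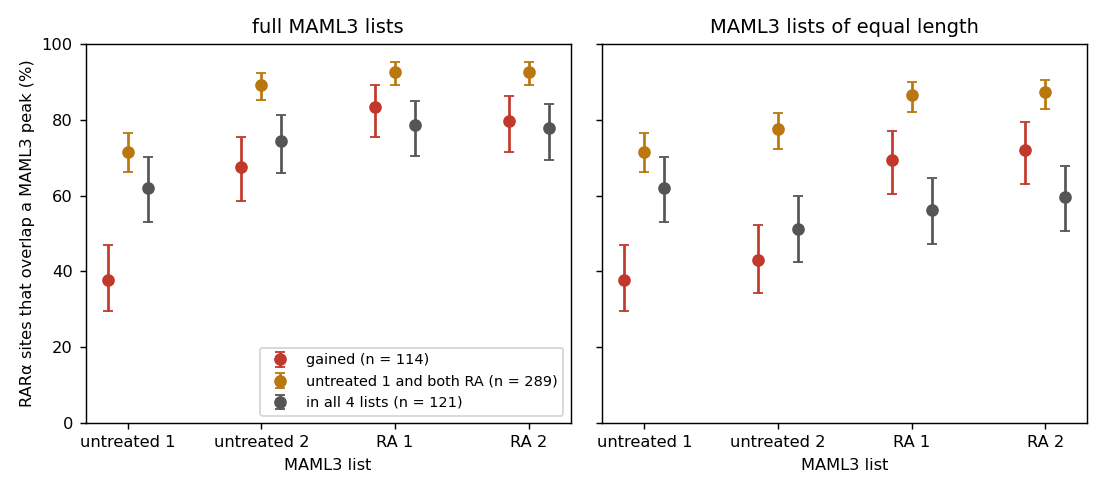
Share (%) of RARα sites that overlap a MAML3 peak of each MAML3 list, for full lists (left) and lists cut to 2222 peaks (right), with 95% Wilson intervals. At equal length the gained sites (red) stand at 37.7 and 43.0% in the untreated lists and 69.3 and 71.9% in the RA lists, and the sites missed only by untreated 2 (orange) at 71.6 and 77.5% against 86.5 and 87.2%. The common sites (grey) lie between 51.2 and 62.0% in all 4 lists.

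MAML3 was held by both RA lists and neither untreated list at 20 of the 114 gained sites (17.5%, 11.7 to 25.6%), 5 of the 121 common sites (4.13%, 1.78 to 9.31%) and 129 of all 2081 sites (6.2%). These counts use the full MAML3 lists, which differ in length, and were not repeated at equal length. These 20 included the sites at CYP26A1 and near CYP26B1, 2 more in EXOC6B, 2 in CCBE1 and those in BCAS3 and SMG6. Their MAML3 peaks differed in rank. In RA 1 and RA 2 the MAML3 percentiles were 75.7 and 94.0 near CYP26B1, 64.9 and 74.2 at CYP26A1, and 41.8 and 56.5 in BCAS3. The RARα percentile of the 20 sites had a median of 75.6, against 36.7 for the 34 gained sites with MAML3 in all 4 lists and 34.5 for the 13 without MAML3. Of the 10 highest ranked gained sites, 10 had MAML3 in both RA lists, 7 of them in neither untreated list, and the other 3 had it in untreated 2. MAML3 lay in both RA lists at 76.3% of the 114 gained sites and 73.6% of all 2081 sites. At the sites missed only by untreated 2 that share was 92%, so MAML3 in both RA lists was not particular to gained sites. The start of RARB was 1 of the 5 common sites with MAML3 in both RA lists and neither untreated list. RARα was called there with and without RA, and MAML3 only with RA, at MAML3 percentiles 54.0 and 72.0.

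Most of the gained and common RARα sites placed at the start of a named gene had no MAML3 peak. Of the 7 gained sites at such a start, 6 had no MAML3 peak in any list, against 7 of the other 107. They lay at KDM4B, NUMB, SKIDA1, TCF3, at CTSA, and at a start shared by ACTR1A and SUFU, with low scores such as 85.11 and 97.58 at NUMB, a regulator of Notch. Of the 12 common sites at a start, 10 had no MAML3 peak, against 7 of the other 109, among them SP1, SP2, KHSRP, RFX1 and FLAD1. At SP1, a zinc finger factor of many housekeeping promoters, the scores were 191.0, 94.27, 173.22 and 128.09. The genes were named after the sites and their MAML3 overlap had been seen, so the counts are a description of the sites that received a name. The other sites include those given no gene, some of which may lie at starts. Whether sites at starts differ from the rest was therefore not tested. The gained site in NCOA3 had no MAML3 peak either and was not at a start.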

How the data were processed

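The authors deposited 1 peak list per immunoprecipitated library, with a chromosome, a start, an end, a name and a score per peak. The score's definition is not given, so it served only for ranks and cut-offs inside each list. BWA 0.5.9, MACS, bedtools and the hg19 build are named in the submitters' processing notes, which do not say whether the inputs entered the peak call. Groups and replicates came from the labels.

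Sites were merged with Python 3.11.15 and numpy 2.4.6, and the merging and classing were tested on simulated lists. A site takes the highest score of its peaks in each list. Its rank is the mean score percentile over the lists that hold it. The sites named are the 10 highest ranked gained and common sites, all lost sites and those near genes of 5 lists. A few of these are not reported here. The members and lists were chosen with earlier results of these data known, and the remaining gene names were added after the sites had been seen.

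Gene spans were written from general knowledge of hg19, since that annotation was not at hand, and no coordinate was converted. Of 191 genes, all lay on the chromosome RefSeq GRCh38 gives, 162 had both ends shifted alike within 3 kb, 25 had one end shifted like a neighbouring gene, and 4 (HDAC9, HIVEP3, NLK and ST3GAL2) failed and were left out, so sites at those loci carry no gene name. The check first failed RARB and was then widened to other RefSeq transcripts. Shares have 95% Wilson intervals.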

Additional observations from a re-analysis of the deposited data

How the results depend on the processing

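No paired analysis was possible because the counts of sites come from no test. Asking for an overlap of at least 50% of the shorter peak, merging within 1 kb, setting nothing aside and setting aside 1 Mb at chromosome ends each left the numbers of gained, lost and common sites within 1.5 times of 114, 10 and 121. With the 50% of peaks that score highest in each list, 73 sites were gained, 5 lost and 66 common, and with lists of equal length 44, 16 and 49. Leaving out each list in turn gave 123 to 458 gained, 23 to 524 lost and 130 to 410 common sites. The cause of these moves was not tested, except that leaving out a list asks for fewer lists to hold a site. A requirement added after the data were seen, no untreated peak within 10 kb, left 91 gained sites.

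The share of gained sites on MAML3 in both RA lists was 76.3%, 64.9% with MAML3 lists of equal length, and 59.8 to 87.6% with each RARα list left out. The share of common sites was 73.6%, 54.5% at equal length, and 71.5 to 86.6% with each list left out. Shares of sites at promoters and with direct repeats, and their alternatives, were not run without hg19 annotation and sequence. Depth is unknown, so the short untreated list limits every absence of a peak.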
